A study of Mus musculus with 103 samples.

Results

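Of the 51456 gene symbols measured in the aortic arch, 9 make up the group described here: 3 transforming growth factor beta (TGF-beta) ligands (Tgfb1, Tgfb2, Tgfb3), 3 receptors (Tgfbr1, Tgfbr2, Tgfbr3), the matrix protein Ltbp2, the inhibitor Smad7 and the target gene Tgfbi. They were taken by name, with earlier results of these data known, and all 9 passed the filter on low values. The arches came from female C57BL/6 mice of the Jackson Laboratory, either wild type or ApoE knockout, that is, without apolipoprotein E, which clears remnant lipoproteins from the blood. All mice, controls included, had been ovariectomized and were fed a diet in which fat gave 42% of the calories. They were injected under the skin once a week with vehicle or with Scl-Ab (r13C7, 10 mg/kg), an antibody against the Wnt antagonist sclerostin, and the question was how the aorta responds to it. Arches were taken after 3 weeks (day22, age 12 to 13 weeks), 8 weeks (day57, age 17 to 18 weeks) or 16 weeks (day113, age 25 to 26 weeks). Each library is 1 animal. In weeks 3, 8 and 16 there were 8, 5 and 10 libraries of wild-type mice on vehicle, and 8, 10 and 10 of knockout mice on vehicle. With the antibody there were 6, 9 and 8 libraries of wild-type mice and 9, 10 and 10 of knockout mice.

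TGF-beta is secreted in a latent form that is tied to the extracellular matrix and has to be released before it can bind. The active ligand binds the type II receptor Tgfbr2, which recruits and phosphorylates the type I receptor Tgfbr1, and Tgfbr1 in turn phosphorylates Smad2 and Smad3, which enter the nucleus with Smad4. In arteries the pathway is known for its part in smooth muscle differentiation, matrix synthesis and aneurysm.

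Apoe checked the genotype labels: its lowest value in a wild-type library was 219.9 and its highest in a knockout library was 18.2. Values are the deposited FPKM-type values (fragments per kilobase, column FPKQ), read depth is unknown, and relative depth ran from 0.824 to 1.58. Relative depth differed between groups in week 8. Knockout Scl-Ab libraries stood at 1.16 to 1.58 there, except replicates 7 (0.946) and 8 (0.959). Wild-type Scl-Ab libraries of that week stood at 0.91 to 1.09 and knockout vehicle libraries at 0.895 to 1.07. The part of depth in comparisons with this knockout Scl-Ab group was not tested. The median correlation of a library with its own group was 0.98 at its median and 0.902 at its lowest, in knockout Scl-Ab replicate 9 of week 3. That library had a summed value of 4338 for 7 cardiomyocyte markers, against a median of 48.7 in its group, and results that rest on it are given with and without it. Wild-type vehicle replicate 4 of week 3 stood next, at a correlation of 0.916 and a cardiomyocyte sum of 4828. Week, age and the 3 sequencing batches that the study's text mentions, without assigning libraries to them, cannot be told apart. In bulk tissue, fewer cells of a type and less RNA per cell cannot be told apart either.

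The promoters of the 2 members that were most often higher in the knockout, Ltbp2 and Tgfb1, and of the receptor with the largest difference between groups, Tgfbr1, are shown first. These are the 250 bases before the RefSeq start site (build GRCm38.p6, strand of the gene), at chr12:84876492-84876741 (minus strand), chr7:25686752-25687001 (plus strand) and chr4:47352972-47353221 (plus strand, the first of 2 entries). Capitals mark CAGAC, the Smad box, and GGGCGG, the GC box, each on either strand (GTCTG and CCGCCC).
Ltbp2: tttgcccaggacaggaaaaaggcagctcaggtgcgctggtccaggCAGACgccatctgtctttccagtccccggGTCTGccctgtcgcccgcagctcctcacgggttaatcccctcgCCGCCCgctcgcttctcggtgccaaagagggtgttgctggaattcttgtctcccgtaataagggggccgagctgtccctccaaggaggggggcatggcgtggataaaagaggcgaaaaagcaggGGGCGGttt
Tgfb1: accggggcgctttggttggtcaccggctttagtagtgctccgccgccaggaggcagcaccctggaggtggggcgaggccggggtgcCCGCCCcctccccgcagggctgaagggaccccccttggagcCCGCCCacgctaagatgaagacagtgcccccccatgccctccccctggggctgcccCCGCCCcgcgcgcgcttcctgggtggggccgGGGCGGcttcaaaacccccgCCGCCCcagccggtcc
Tgfbr1: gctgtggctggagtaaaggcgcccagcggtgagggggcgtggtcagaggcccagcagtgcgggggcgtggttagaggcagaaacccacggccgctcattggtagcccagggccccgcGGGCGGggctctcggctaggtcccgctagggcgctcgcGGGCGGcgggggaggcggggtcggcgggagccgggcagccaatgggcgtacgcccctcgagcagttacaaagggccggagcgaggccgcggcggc
The Ltbp2 window held 2 Smad boxes and 2 GC boxes, the Tgfb1 window 0 and 5, and the Tgfbr1 window shown 0 and 2, with no overlap between marked motifs. The second Tgfbr1 entry, at chr4:47385966-47386215 and not shown, held 1 Smad box and 0 GC boxes. Of 32851 mouse promoter windows of this length, 42.2% held CAGAC and 32.7% held GGGCGG, again on either strand. TGANTCA, the AP-1 site, was in 6.7% of all windows, and TATAAA was in 12.4%; neither was in any of the 3 windows shown. GC content was 61.6% in the Ltbp2 window, 75.2% in that of Tgfb1 and 74.8% in that of Tgfbr1. RefSeq entries were matched for 6 of the 9 members, all but Tgfb3, Tgfbr3 and Smad7.

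Per kilobase of transcript, Tgfbi was the most abundant member, with a mean value of 128 ± 30.2 (SD, over the libraries of all groups). Tgfbr1 (52.1 ± 15.7), Tgfb3 (49.7 ± 9.83), Tgfbr2 (42.6 ± 5.55) and Ltbp2 (40.8 ± 22.2) followed, and neighbours from Tgfbr1 downward lay within the larger of their SDs, except Tgfb1 over Tgfb2. Tgfbr3 stood at 25.3 ± 3.21, Tgfb1 at 23.3 ± 7.99, Tgfb2 at 14.2 ± 4.31 and Smad7 at 10.9 ± 3.00. The group means of Ltbp2 spanned 1.88 on the log2 scale and those of Tgfbr3 only 0.30.

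The knockout was set apart by a pair of transcripts: Tgfb1, the ligand, and Ltbp2, the matrix protein, were each higher in 5 of the 6 comparisons of knockout with wild type, while Tgfbr2 and Smad7 passed the test in none. A gene passed at an adjusted p under 0.05 over all 14637 genes tested (limma, two-sided). Under vehicle 0 members were higher and 1 was lower in the knockout in week 3, where 24.9% of all genes passed (11.6% higher, 13.4% lower). In week 8 under vehicle 2 were higher and 1 was lower, against 15.5% of all genes (10.2% higher, 5.32% lower), and in week 16 again 2 and 1, against 36.7% (15.5% higher, 21.1% lower). Under Scl-Ab 4 members were higher and 0 lower in week 3, against 25.7% of all genes (13.3% higher, 12.4% lower). In week 8 under Scl-Ab 3 were higher and 1 was lower, against 32.2% (14.3% higher, 17.9% lower), and in week 16 there were 2 and 2, against 43.9% (17.6% higher, 26.3% lower).

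The share of the 9 members that passed was 11.1%, 33.3% and 33.3% under vehicle and 44.4% in each week under Scl-Ab, so that in week 16 it was close to the share of all genes. Their median log2 difference under vehicle was -0.08, -0.01 and -0.09 in weeks 3, 8 and 16, beside -0.02, -0.03 and -0.06 for all genes. The groups did not overlap for 0, 1 and 2 members under vehicle and for 0, 2 and 2 under Scl-Ab, in the same order of weeks, all of them Tgfb1 or Ltbp2. Over all 14637 genes the groups did not overlap for 1.30%, 5.81% and 8.08% under vehicle and for 3.28%, 6.57% and 10.2% under Scl-Ab.

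**Figure D1:**
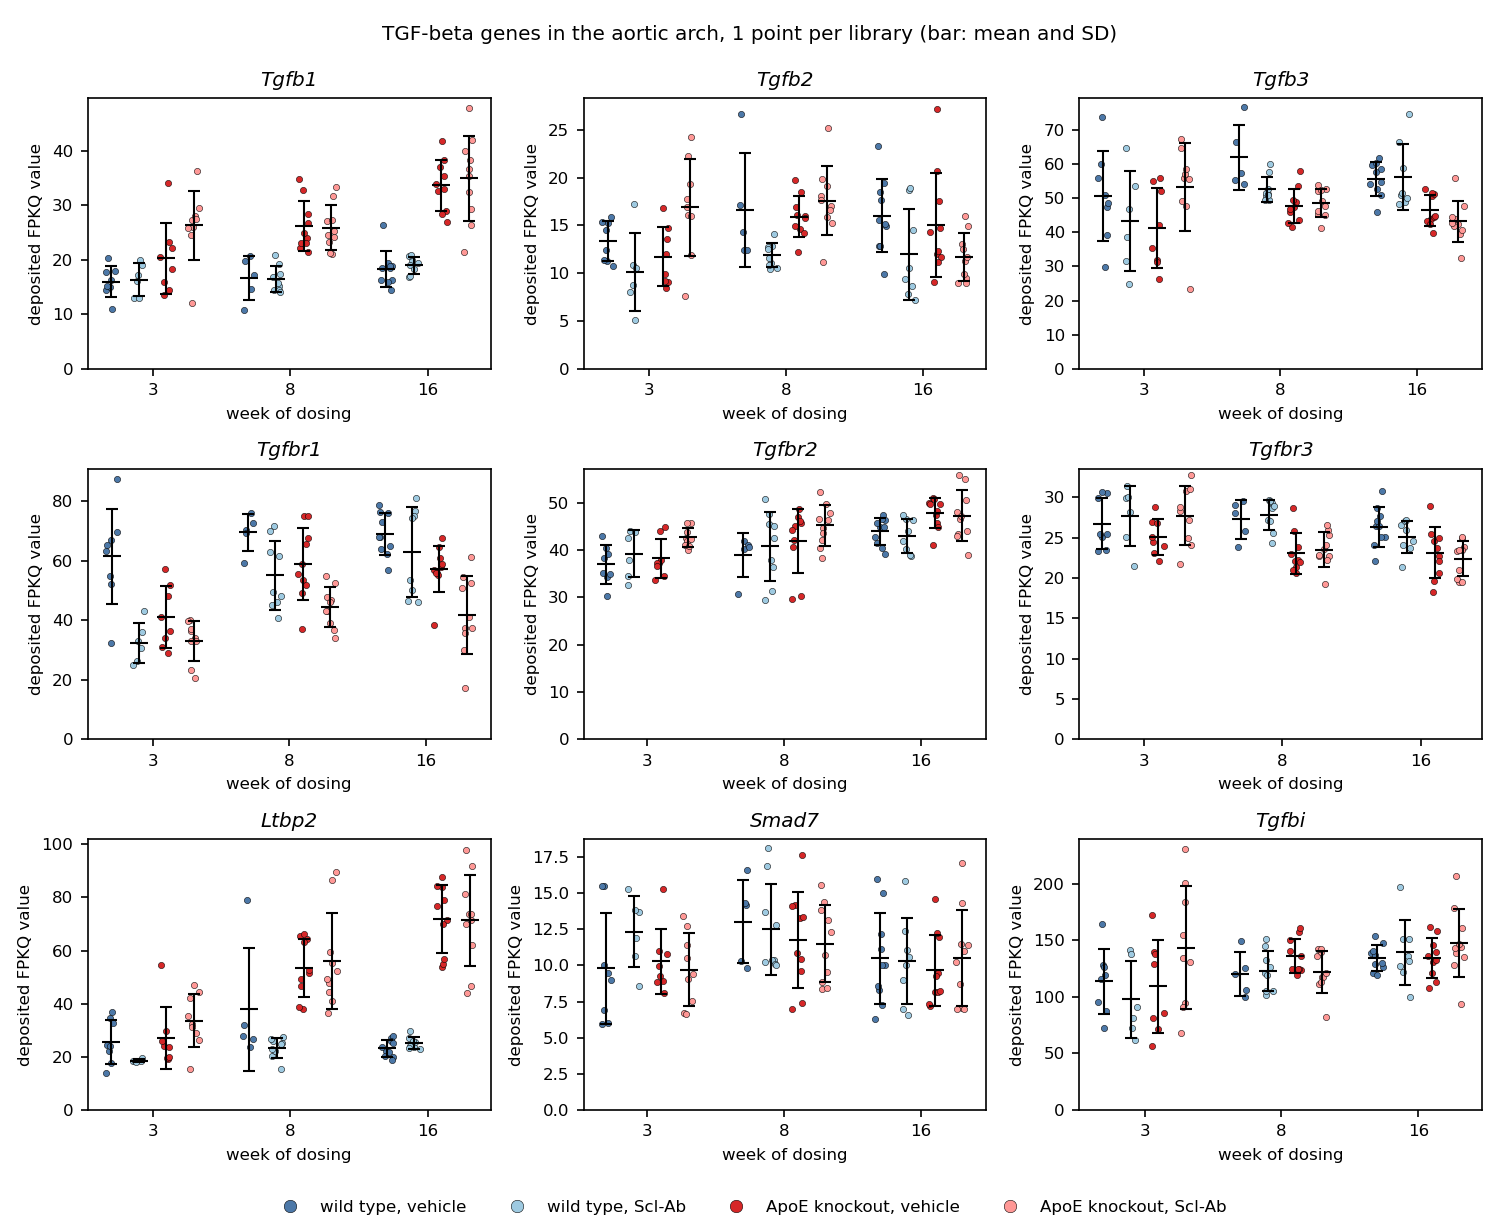
Deposited value of each of the 9 genes (vertical axis, FPKQ, from 0) by week of dosing, 1 point per library and coloured by genotype and treatment, with the group mean and SD as bars. Knockout libraries of Ltbp2 lie at 53.7 to 87.8 in week 16 under vehicle, above all wild-type vehicle libraries of that week (18.8 to 27.96).

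Tgfb1 (chr7:25687002-25705077, plus strand), the ligand made by many cells including leukocytes and platelets, was higher in the knockout. In week 16 its lowest, median and highest values were 14.5, 18.5 and 26.4 in wild-type vehicle libraries. The knockout vehicle libraries stood at 26.99, 33.4 and 41.9, so the groups did not overlap. The log2 difference was 0.84 ± 0.12 (SE, adjusted p = 1.03e-08). In week 8 the 5 wild-type vehicle values were 10.9, 14.6, 17.3, 19.8 and 20.8, all below the knockout vehicle values of 21.5, 24.5 and 34.9 (lowest, median, highest). This difference was 0.64 ± 0.15 (adjusted p = 0.00081). In week 3 the vehicle groups overlapped, at 10.9, 15.7 and 20.4 in wild type and 13.6, 19.4 and 34.02 in knockout, and the difference of 0.29 ± 0.14 did not pass (adjusted p = 0.11).

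With Scl-Ab in both genotypes, Tgfb1 was again higher in the knockout, by 0.63 ± 0.14 in week 3 (adjusted p = 0.00071), 0.62 ± 0.13 in week 8 (4.11e-05) and 0.81 ± 0.13 in week 16 (1.35e-07). The groups did not overlap in weeks 8 and 16. All 6 knockout group means, from 20.3 to 34.95, ranked above the 6 wild-type group means, from 16.0 to 19.02. Among the 6 wild-type means, each step to the next was smaller than the SDs of both groups involved.

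Tgfb2 (chr1:186622792-186705989, minus strand) and Tgfb3 (chr12:86056745-86079041, minus strand), ligands of the same receptors that are made by vessel wall cells, passed in fewer comparisons of genotypes: Tgfb2 was higher in the knockout in 2 of 6 and Tgfb3 lower in 1 of 6. The difference between ligands was not tested. Tgfb2 under vehicle differed between genotypes by -0.20 ± 0.17, -0.01 ± 0.19 and -0.11 ± 0.16 in weeks 3, 8 and 16, none of which passed. Under Scl-Ab it was higher in the knockout in week 3 (0.71 ± 0.18, adjusted p = 0.003) and week 8 (0.51 ± 0.16, 0.0093), not in week 16 (0.03 ± 0.17, 0.92). The week 3 values under Scl-Ab were 5.12, 9.63 and 17.3 in wild type and 7.59, 16.9 and 24.3 in knockout, with overlap. The call of week 8 was lost with the first 2 principal components of 15 circadian clock genes in the model (0.43 ± 0.17, adjusted p = 0.072). Without the 34 libraries with the highest scores for markers of neighbouring fat, muscle, heart or thymus, an alternative chosen after seeing the data, both calls were lost (0.53 ± 0.23, 0.0997, in week 3 and 0.44 ± 0.21, 0.17, in week 8). In the week 3 comparison 5 of 6 brown adipocyte markers were lower and 7 of 8 fibroblast markers higher in the knockout, and their part in the result was not tested. Without knockout Scl-Ab replicate 9 the difference of Tgfb2 in week 3 was 0.83 ± 0.18, and that of Tgfb3, which was 0.31 ± 0.14 (adjusted p = 0.095), became 0.45 ± 0.13 (0.0043).

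Tgfb3 was the most abundant ligand in every group, with group means from 41.2 to 61.96. It was lower in the knockout in 1 comparison, week 16 under Scl-Ab, at -0.37 ± 0.13 (adjusted p = 0.013), where wild type stood at 48.2, 51.3 and 74.6 and knockout at 32.4, 42.6 and 56.01. Under vehicle the differences were -0.30 ± 0.13, -0.36 ± 0.15 and -0.25 ± 0.12 in weeks 3, 8 and 16 (adjusted p = 0.088, 0.078 and 0.086). Fitted on the compared week alone, the same differences of weeks 8 and 16 passed (adjusted p = 0.0007 and 0.0079), with smaller standard errors (0.08 in both). Without wild-type vehicle replicate 4 the difference of week 3 passed too. Ttll5 lies across Tgfb3 on the other strand and an antisense gene lies across Tgfb2 in GENCODE M21. The library kit marks strand, but its use in counting is not given in the sources used here. Reads of such pairs may be mixed.

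The make-up of the ligand transcripts is given as each ligand's share of their summed value. Tgfb1 took 20.4 ± 2.56% of the summed ligand value in wild-type vehicle libraries of week 16 (n = 10) and 35.4 ± 2.87% in knockout vehicle libraries (n = 10). Tgfb3 took 61.95 ± 2.58% and 49.1 ± 4.03% in the same groups. The sum itself was 89.9 ± 9.79 and 95.2 ± 12.4. In each week under vehicle the lowest knockout share of Tgfb1 (23.6%, 24.98% and 31.8% in weeks 3, 8 and 16) was above the highest wild-type share (22.5%, 19.8% and 24.99%). Under Scl-Ab the shares overlapped in weeks 3 and 8, and in week 16 they did not, at 18.3 to 25.2% in wild type and 30.6 to 45.6% in knockout. These shares are a description and were not tested.

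**Figure D2:**
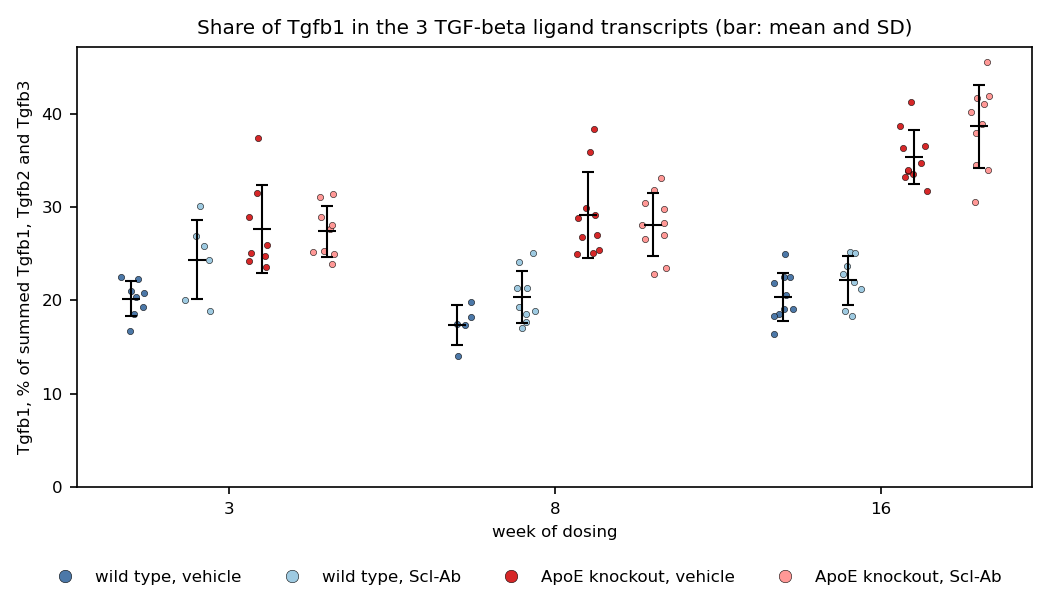
Share of Tgfb1 in the summed value of the 3 ligands (vertical axis, percent, from 0) by week of dosing, 1 point per library, with group mean and SD. Under vehicle the knockout points lie above the wild-type points in every week, with means of 35.4% and 20.4% in week 16.

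Among the receptors Tgfbr1 (chr4:47353222-47414931, plus strand), the type I receptor kinase that phosphorylates Smad2 and Smad3, varied most. In week 3 wild-type vehicle libraries stood at 32.3, 64.3 and 87.3 (lowest, median, highest) and knockout vehicle libraries at 28.9, 38.7 and 57.2. The groups overlapped, and Tgfbr1 was lower in the knockout by a log2 difference of -0.56 ± 0.16 (adjusted p = 0.0057). It was also lower in the knockout in week 16 under Scl-Ab (-0.62 ± 0.15, 0.00037), at 17.3, 39.2 and 61.2 against 46.0, 63.9 and 81.2 in wild type. The other 4 differences between genotypes ran from -0.29 to 0.02 and did not pass. With scores of neighbouring tissues in the model, Tgfbr1 also passed as lower in weeks 8 and 16 under vehicle (-0.44 and -0.27, adjusted p = 0.0078 and 0.030). In week 8 under Scl-Ab it passed as lower in that model (-0.27, 0.036) and in a fit on week 8 alone (-0.29, 0.049). Models in which Tgfbr1 no longer passed are given below.

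Tgfbr1 was the only member that passed in a comparison of Scl-Ab with vehicle. In wild-type mice of week 3 its values under Scl-Ab were 25.0, 31.9 and 42.95, against 32.3, 64.3 and 87.3 under vehicle, a difference of -0.88 ± 0.17 (adjusted p = 0.00018), where 26.9% of all genes passed (13.7% higher, 13.2% lower). With the clock components in the model the 3 calls on Tgfbr1 were lost, at -0.24 in week 3 under vehicle (adjusted p = 0.41), -0.34 in week 16 under Scl-Ab (0.054) and -0.47 for Scl-Ab in wild type of week 3 (0.28). For Scl-Ab in wild type of week 3 that model left 0 of 14637 genes called. That of week 3 under vehicle was also lost without the 34 libraries of high tissue scores (-0.60 ± 0.21, 0.057). Of the 15 clock genes, 3 were higher and 4 lower with Scl-Ab in wild type of week 3, and their summed value was 400.0 to 606 against 300 to 578 under vehicle. All 6 brown adipocyte markers were higher in that comparison too, with sums of 494 to 6803 against 111.8 to 3949. The part of clock genes and fat in the result was not tested.

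Tgfbr2 (chr9:116084293-116175360, minus strand), the type II receptor that binds the ligand, passed in none of the 12 comparisons. Its differences between genotypes were 0.05 to 0.16, and their 95% intervals reached from -0.11 to 0.31. Group means ran from 36.9 ± 4.05 in wild-type vehicle of week 3 to 47.9 ± 3.21 in knockout vehicle of week 16. In week 3 the ratio of Tgfbr1 to Tgfbr2 was 1.67 ± 0.43 in wild-type vehicle libraries (n = 8). In wild-type Scl-Ab libraries of that week it was 0.83 ± 0.14 (n = 6), with overlap. Under Scl-Ab in week 16 it was 1.45 ± 0.25 in wild-type and 0.88 ± 0.26 in knockout libraries (n = 8 and 10), with overlap. These ratios were not tested.

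Tgfbr3 (chr5:107106570-107289629, minus strand), or betaglycan, a co-receptor that presents Tgfb2 to the signalling receptors, was slightly lower in the knockout. The differences that passed were -0.24 ± 0.08 in week 8 under vehicle (adjusted p = 0.035), -0.19 ± 0.07 in week 16 under vehicle (0.019) and -0.23 ± 0.07 in week 8 under Scl-Ab (0.0048). In week 8 under vehicle the wild-type values were 29.5, 28.0, 29.1, 25.9 and 23.8 and the knockout values 20.7, 22.1 and 28.7 (lowest, median, highest), with overlap. That call was lost without any of 7 libraries, wild-type vehicle replicates 1, 2 and 3 and knockout vehicle replicates 1, 3, 5 and 8, with adjusted p up to 0.12. It was also lost with no filter on low values (-0.24, 0.060), with scores of 5 neighbouring tissues in the model (-0.19, 0.076) and without the 34 libraries of high tissue scores (-0.24, 0.097). Without those 34 libraries the call of week 8 under Scl-Ab was lost as well (-0.23, 0.077). The call of week 16 was lost without wild-type replicate 3 or knockout replicates 3 or 10 (adjusted p up to 0.069), and with rescaling by median of ratios (-0.14, 0.069).

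Ltbp2 (chr12:84783212-84876532, minus strand), a latent TGF-beta binding protein of elastic fibres that, unlike its relatives, does not bind latent TGF-beta itself, had the largest difference between genotypes among the 9 members. In week 16 its lowest, median and highest values were 18.8, 22.9 and 27.96 in wild-type vehicle libraries and 53.7, 74.2 and 87.8 in knockout vehicle libraries. The groups did not overlap, and the log2 difference was 1.58 ± 0.16 (adjusted p = 1.81e-14). Under Scl-Ab in week 16 wild type stood at 23.1, 24.9 and 29.8 and knockout at 44.1, 72.7 and 97.7, again without overlap (1.42 ± 0.17, 1.70e-11). The Scl-Ab groups of week 8 did not overlap either, at 15.5, 24.9 and 27.3 in wild type and 36.6, 50.8 and 89.6 in knockout (1.19 ± 0.16, 4.15e-09). In week 3 under Scl-Ab the values were 18.0, 18.4 and 19.5 against 15.4, 32.2 and 47.1, with overlap and a difference of 0.77 ± 0.19 (adjusted p = 0.0017).

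In week 8 under vehicle 1 wild-type library decided much of the value of Ltbp2. The 5 wild-type values were 23.8, 28.0, 26.8, 78.8 and 31.9, against 37.8, 51.95 and 66.2 in the knockout. The difference was 0.61 ± 0.20 (adjusted p = 0.021), and 0.91 ± 0.20 (0.00024) without replicate 4, the library at 78.8. In turn, without wild-type replicate 1, 2, 3 or 5 the call was lost (adjusted p up to 0.13). Replicate 4 had the highest summed values of its group for fibroblast markers (5456, group median 3310), chondrocyte markers (124, group median 47.1), macrophage markers (514, group median 246) and platelet markers (55.8, group median 22.4). It had the lowest for smooth muscle markers (10840, group median 16260) and endothelial markers (107.6, group median 203). The part of these cells in its value was not tested. An antisense gene lies across Ltbp2 in GENCODE M21.

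The genotype difference of Ltbp2 grew with time under vehicle. In week 3 it was 0.05 ± 0.18 (adjusted p = 0.85), with values of 13.8, 24.2 and 36.9 in wild type and 18.98, 23.9 and 54.5 in knockout. The difference in week 16 exceeded that of week 3 by 1.53 ± 0.24 (adjusted p = 6.48e-06), in a comparison where 4.22% of all genes passed (3.29% higher, 0.922% lower). For Tgfb1 the same contrast was 0.56 ± 0.18 and did not pass (adjusted p = 0.060). In week 8 against week 3, where 0.273% of all genes passed, the contrast for Ltbp2 was 0.56 ± 0.27 (adjusted p = 0.32; 0.86 ± 0.26 and 0.13 without wild-type vehicle replicate 4 of week 8) and 0 of 9 members passed (1 had an unadjusted p under 0.05, as had 14.2% of all genes). Group means of Ltbp2 in wild-type vehicle mice were 25.7 ± 8.28, 37.9 ± 23.1 and 23.2 ± 3.17 in weeks 3, 8 and 16, with replicate 4 of week 8 at 78.8. Those in wild-type Scl-Ab mice rose from 18.5 ± 0.512 to 23.4 ± 3.74 and 25.3 ± 2.30. Those in knockout vehicle mice were 27.03 ± 11.7, 53.5 ± 10.8 and 71.9 ± 12.9. Change with week within a genotype was not tested.

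Smad7, the inhibitory Smad that TGF-beta itself induces and that blocks the type I receptor, passed in none of the 12 comparisons. Its group means lay between 9.66 and 13.0, with SDs of 2.26 to 3.84. The 6 differences between genotypes ran from -0.33 to 0.11, with 95% intervals reaching from -0.70 to 0.47. Tgfbi (chr13:56609523-56639562, plus strand), a secreted matrix protein that binds collagens and integrins and was named for its induction by TGF-beta, passed in 1 comparison. In week 3 under Scl-Ab it was higher in the knockout, at 68.3, 134 and 231 against 62.04, 86.1 and 141, with overlap (0.52 ± 0.17, adjusted p = 0.021). That call was lost without wild-type Scl-Ab replicate 2 or 4 or knockout Scl-Ab replicate 5, 7 or 8 (adjusted p up to 0.11), and in a fit on week 3 alone (0.18). With scores of 5 neighbouring tissues in the model it was 0.30 ± 0.16 (adjusted p = 0.18), and without the 34 libraries of high tissue scores 0.53 ± 0.20 (0.053). In that comparison 5 of 6 brown adipocyte markers were lower in the knockout. In week 16 under vehicle, where Tgfb1 and Ltbp2 were higher, Tgfbi stood at 134 ± 11.2 in wild type and 135 ± 17.6 in knockout (n = 10 each; 95% interval of the log2 difference -0.29 to 0.29).

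**Figure D3:**
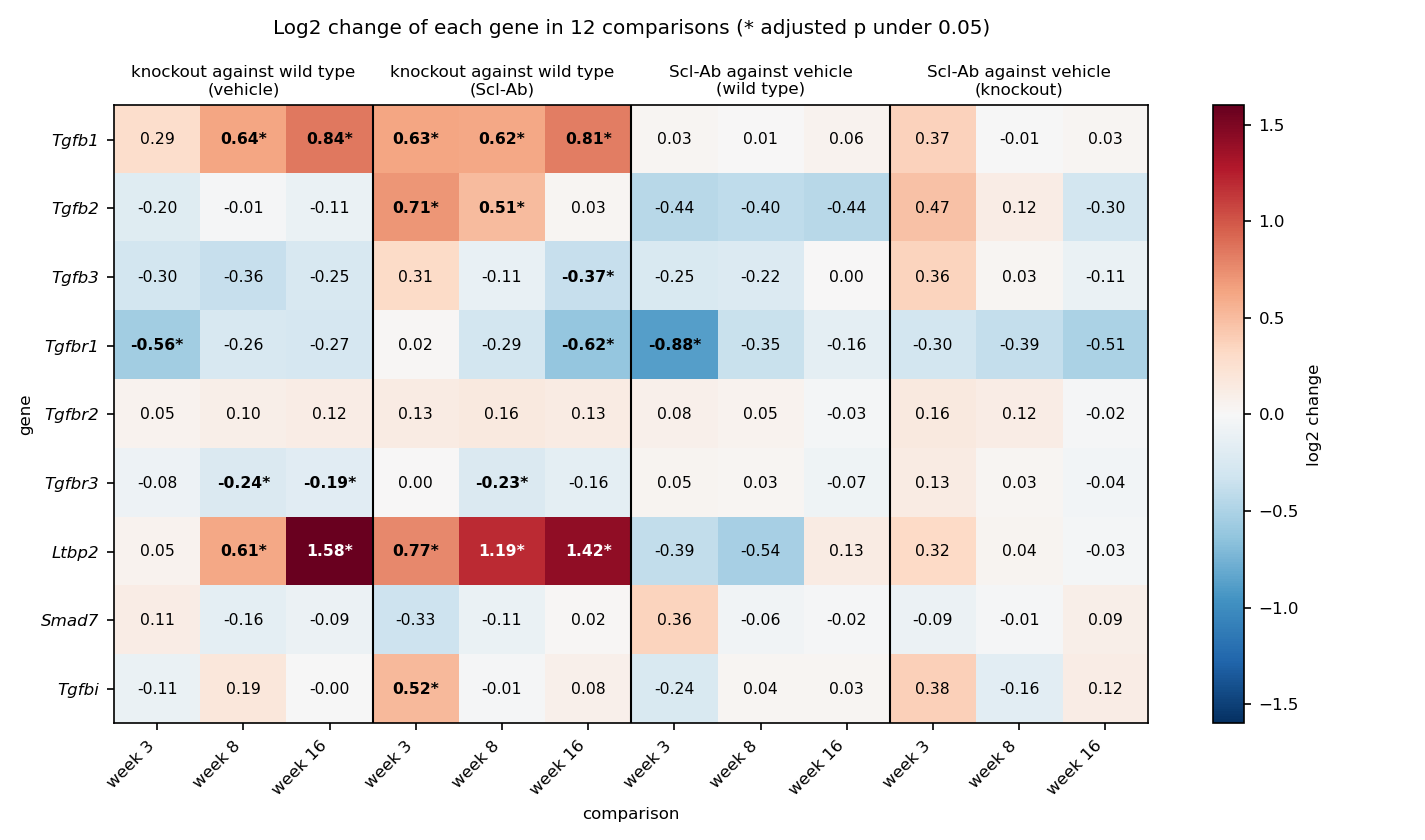
Log2 change of each gene (rows) in the 12 comparisons of 2 groups (columns), with red for higher and blue for lower in the first-named group and a star for an adjusted p under 0.05. The stars of Tgfb1 and Ltbp2 fill 5 of the 6 columns of knockout against wild type, and Scl-Ab against vehicle has 1 star, for Tgfbr1 (-0.88).

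Scl-Ab against vehicle gave few calls among the members. Apart from Tgfbr1 in wild type of week 3, 0 of 9 members passed in the other 5 comparisons in limma, in which 0% of all genes passed in wild type of week 8, 0.00683% in wild type of week 16, and 9.15% (5.51% higher, 3.63% lower), 1.81% (0.704% higher, 1.11% lower) and 0.0137% in knockout of weeks 3, 8 and 16. At an unadjusted p under 0.05 there were 3, 1, 5, 1 and 1 members in the same order, beside 10.2%, 5.45%, 26.4%, 17.2% and 14.4% of all genes. In week 16 the change of Ltbp2 with Scl-Ab in knockout mice was -0.03 (95% interval -0.35 to 0.29) and that of Tgfb1 was 0.03 (-0.21 to 0.27). Tgfbr1 was lower with Scl-Ab in all 6 estimates, from -0.88 to -0.16, of which 1 passed. With scores of 5 neighbouring tissues in the model it also passed in knockout of week 3 (-0.44 ± 0.12, adjusted p = 0.012) and week 16 (-0.43 ± 0.10, 0.0498). The estimates share vehicle libraries with the comparisons of genotypes, and the genotype and treatment results are thus not independent.

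In knockout mice of week 3 several members lay near the threshold. Tgfb1 changed by 0.37 ± 0.13 (adjusted p = 0.057), Tgfb2 by 0.47 ± 0.17 (0.065), Tgfb3 by 0.36 ± 0.13 (0.062) and Tgfbi by 0.38 ± 0.16 (0.11). Without knockout Scl-Ab replicate 9, the library with cardiomyocyte transcripts, 5 members passed, at 0.50 ± 0.12 for Tgfb1, 0.59 ± 0.17 for Tgfb2, 0.50 ± 0.12 for Tgfb3, 0.45 ± 0.17 for Ltbp2 and 0.50 ± 0.16 for Tgfbi (adjusted p up to 0.044). In the same comparison without knockout vehicle replicate 2, 4, 5 or 7 the counts were 3, 2, 4 and 1. The count in this comparison thus rested on single libraries.

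The response to Scl-Ab differed between genotypes for 3 members in week 3, where 18.2% of all genes passed (6.85% higher, 11.3% lower). It was higher in the knockout by 0.90 ± 0.25 for Tgfb2 (adjusted p = 0.0094), by 0.61 ± 0.19 for Tgfb3 (0.021) and by 0.71 ± 0.26 for Ltbp2 (0.044). In that order, the changes with Scl-Ab were -0.44, -0.25 and -0.39 in wild type and 0.47, 0.36 and 0.32 in knockout. None of these changes passed by itself. Each of the 3 calls was lost in a fit on week 3 alone (adjusted p = 0.16, 0.24 and 0.18) and with scores of 5 neighbouring tissues in the model (0.27, 0.34 and 0.24). The fit on week 3 alone gave the same differences with standard errors of 0.28, 0.30 and 0.30, and with tissue scores the differences were 0.65, 0.38 and 0.75. The call of Ltbp2 was lost in 7 of 9 alternatives, over which its difference ran from 0.64 to 0.75. Without wild-type Scl-Ab replicate 4 no member passed, and without knockout Scl-Ab replicate 9 there were 6. Of the 31 libraries of week 3, leaving out 1 kept the call of Ltbp2 in 12 cases. All 6 brown adipocyte markers differed in the opposite direction, with a median of -2.92, and their part in the result was not tested. In weeks 8 and 16, where 0% of all genes passed in limma, 0 of 9 members did, and 2 and 0 had an unadjusted p under 0.05, beside 7.08% and 2.11% of all genes.

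The rest of the pathway was read from 3 lists, also chosen with earlier results of these data known. Their counts stand beside those of all genes: 15.5% higher and 21.1% lower in the knockout in week 16 under vehicle, 11.6% and 13.4% in week 3, and 10.2% and 5.32% in week 8. Of 12 measured genes of TGF-beta storage and activation, 3 were higher and 2 lower in the knockout in week 16 under vehicle (median log2 difference 0.08, all genes -0.06). Thbs1, thrombospondin 1, which can activate latent TGF-beta, was higher by 2.91 ± 0.28 (adjusted p = 2.40e-15), from 8.95 ± 2.43 to 74.8 ± 22.4 (n = 10 each). Nrros, which tethers latent TGF-beta on macrophages and microglia, was higher by 1.57 ± 0.18, and Itgb8, an integrin subunit that activates it, by 0.55 ± 0.12. Ltbp4, a relative of Ltbp2 that does bind latent TGF-beta, was lower by a difference of -0.74 ± 0.11. Under vehicle 2 genes of this list were higher and 5 lower in week 3, and 2 were higher and 0 lower in week 8.

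Of 15 co-receptors, Smads and inhibitors, 1 was higher and 8 were lower in the knockout in week 16 under vehicle (median -0.18, all genes -0.06; 15.5% of all genes were higher and 21.1% lower). Tgif1, a repressor of Smad-driven transcription, was the one that was higher (0.74 ± 0.11). Lower were Skil, another Smad repressor (-0.47 ± 0.11), Smurf2, a ubiquitin ligase for the receptor (-0.36 ± 0.08), and Smad4, the common partner Smad (-0.20 ± 0.05). Under vehicle 1 was higher and 2 lower in week 3, and 1 was higher and 1 lower in week 8.

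Of 14 target genes, 5 were higher and 2 lower in the knockout in week 16 under vehicle (median 0.05, all genes -0.06; 15.5% of all genes were higher and 21.1% lower). Timp1, the metalloproteinase inhibitor, was higher by 3.07 ± 0.30, from a median of 30.9 in wild type to 229 in knockout, and Fn1, fibronectin, by 1.26 ± 0.17, from 289.5 ± 21.1 to 699 ± 94.6. Col1a1, a collagen I chain, was higher by 0.82 ± 0.17 and Loxl2, a collagen crosslinking enzyme, by 0.70 ± 0.14. In the contrast of week 16 with week 3, 5 of the 14 targets had a higher genotype difference and 0 a lower one. Of all genes 3.29% were higher and 0.922% lower there. The contrast was 2.07 ± 0.45 for Timp1, 1.34 ± 0.25 for Fn1, 1.04 ± 0.26 for Col1a1 and 0.90 ± 0.21 for Loxl2. These 4 targets were named by their adjusted p in week 16, and the contrast reuses those libraries, so it is no separate evidence for them. Under vehicle 2 targets were higher and 4 lower in week 3, among the latter Ctgf, a matricellular protein (-0.84 ± 0.24). Under Scl-Ab in week 3, 7 targets were higher and 0 lower in the knockout (median 0.54, all genes 0.01). The storage list had 5 and 0 and the co-receptor list 3 and 0, beside 13.3% and 12.4% of all genes. There 5 of 6 brown adipocyte markers were lower and 7 of 8 fibroblast markers higher, and their part was not tested. In weeks 8 and 16 under Scl-Ab 5 targets were higher, and 2 and 4 lower (all genes: 14.3% and 17.6% higher, 17.9% and 26.3% lower).

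**Figure D4:**
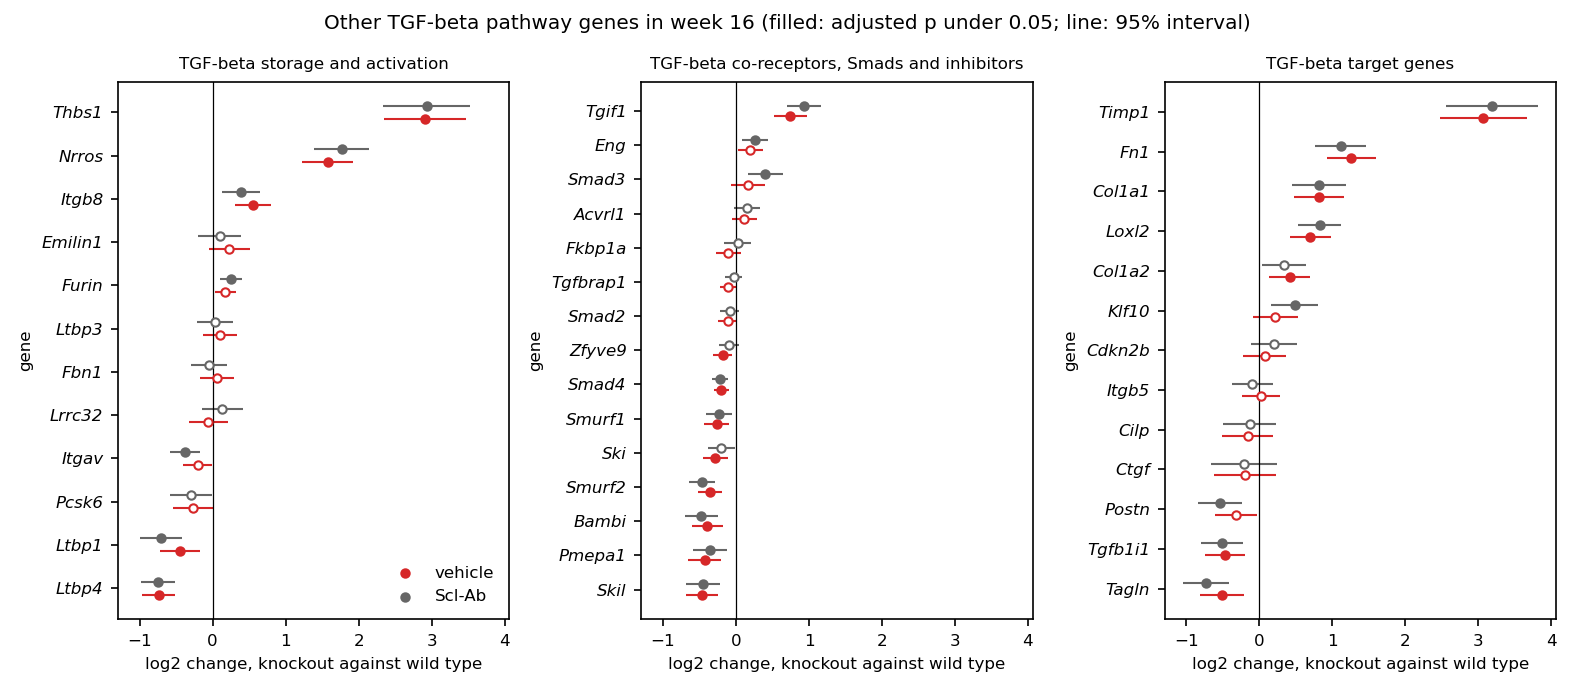
Log2 difference between knockout and wild type in week 16 (horizontal axis) for the measured genes of the 3 pathway lists but 1 target gene (rows), under vehicle (red) and Scl-Ab (grey), with 95% intervals as lines and filled points for an adjusted p under 0.05. Thbs1 (2.91 under vehicle) and Timp1 (3.07) lie farthest to the right, and most co-receptors, Smads and inhibitors lie left of 0.

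In the comparison where Tgfbr1 fell with Scl-Ab, wild type of week 3, 1 target gene was higher and 7 were lower (median -0.58, all genes -0.02), beside 13.7% of all genes higher and 13.2% lower. Ctgf was lower by a difference of -1.51 ± 0.26, from 778 ± 218 to 275 ± 98.1 (n = 8 and 6). The storage list had 1 higher and 4 lower, among them Fbn1, fibrillin 1 (-0.88 ± 0.14), and the co-receptor list 1 higher and 3 lower. In the same comparison 3 of 8 smooth muscle markers were lower and all 6 brown adipocyte markers higher, and their part in the result was not tested. With the clock components in the model 0 of 14637 genes passed in this comparison, so its calls on targets, storage genes and co-receptors were lost. In knockout mice of week 3, 2 storage genes, 1 co-receptor and 2 targets were higher with Scl-Ab and 0 were lower, beside 5.51% and 3.63% of all genes.

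Cell markers moved with genotype beside Tgfb1 and Ltbp2. In week 16 under vehicle all 10 macrophage markers were higher in the knockout, with summed values of 204 to 459 in wild type and 1339 to 4424 in knockout. Of 8 smooth muscle markers 7 were lower, with sums of 13000 to 18120 and 8504 to 13910, and of 7 measured chondrocyte markers 6 were higher, with sums of 27.4 to 52.4 and 94.1 to 588. No marker of these 3 lists was at 0 throughout a week 16 vehicle group. In each group the median sum was highest for the smooth muscle markers (9797 to 17530), the defining cells of the labelled tissue. Of 8 endothelial markers 2 were lower, and of 8 fibroblast markers 2 were higher and 2 lower. In week 3 under vehicle 9 of 10 macrophage and 2 of 8 endothelial markers were higher, 4 of 8 smooth muscle markers were lower, and 0 of 7 chondrocyte and 0 of 8 fibroblast markers passed. The part of these cells in the results on Tgfb1 and Ltbp2 was not tested.

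Within groups, members varied together to different degrees. After each group mean was subtracted, Pearson's r over all libraries was 0.642 between Tgfb2 and Tgfb3, 0.634 between Ltbp2 and Tgfb1, and 0.634 between Tgfb3 and Tgfbi. The genes most like each member were Slc39a1 for Tgfb1 (r = 0.818), Sulf1 for Tgfb2 (0.724), Smo for Tgfb3 (0.881), Fndc3b for Tgfbr1 (0.891) and Arid1a for Tgfbr2 (0.783). For Tgfbr3 it was Phf24 (0.611), for Ltbp2 Col8a1 (0.777) and then Timp1 (0.775), for Smad7 Nab2 (0.691) and for Tgfbi Olfml3 (0.898). These values describe libraries that share depth, tissue carried over and scaling.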

How the data were processed

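RNA of aortic arches, 1 animal per library, was sequenced with a stranded mRNA kit. The authors deposited 1 FPKM-type value per gene symbol and library (column FPKQ), which the labels do not define. Per the submitters' processing notes GRCm38 and DESeq2 1.10.1 were used. Aligner, quantifier, annotation and use of strand: not given in the sources used here. 1 file had no header line. Depth is unknown, and no interval for counting error can be given. Relative depth was estimated from the steps between low values.

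Groups came from the labels. Genes that reached 1 in 5 or more libraries (14637) were kept, and a linear model was run on log2(value + 1) with 1 coefficient for each of the 12 groups, using limma 3.58.1 with trend and robust options (R 4.3.3) and Benjamini-Hochberg adjustment over all genes, called at 0.05, two-sided. The offset understates changes of low genes. The fit was tested on simulated data. Contrasts were genotype within treatment and week, treatment within genotype and week, the difference of treatment responses, and the change of the genotype difference under vehicle with time. Named were all 9 members, Apoe, up to 4 called genes per pathway list and comparison by adjusted p, and the genes most correlated with each member, predicted genes left out. The values of 1 target gene are not reported here. Members and lists were chosen with earlier results of these data known. Gene positions and overlaps are from GENCODE M21, promoters from RefSeq.

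Alternatives were a pseudocount of 0.1, no filter, rescaling by median of ratios (factors 0.934 to 1.05), fits on the compared week or groups alone, a replicate block, scores of 5 tissues that can be carried over (white and brown fat, skeletal muscle, heart, thymus), 2 clock components, the run of animal numbers, and leaving out each library. Leaving out 34 libraries with a tissue score over 2.5 median absolute deviations above the median was chosen after seeing the data.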

Additional observations from a re-analysis of the deposited data

Results flagged for a closer look

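Over 9 genes in 12 groups, 9 single libraries stood apart by Dixon's test at the 95% level, where chance alone would be expected to set apart about 1 gene and group in 20. Knockout Scl-Ab replicate 9 of week 3 was low for Tgfb1 (12.1, next library 24.5) and Tgfb3 (23.4, next 47.7). Among wild-type vehicle libraries, replicate 1 of week 16 was high for Tgfb1 (26.4, next 19.5), replicate 5 of week 8 was low for Tgfbr2 (30.7, next 40.3), and replicate 4 of week 8 was high for Ltbp2 (78.8, next 31.9). Knockout vehicle replicate 2 of week 16 was low for Tgfbr1 (38.5, next 55.2), and replicate 4 of week 3 was high for Ltbp2 (54.5, next 29.8), with the highest macrophage marker sum of its group (3709). Wild-type Scl-Ab replicate 3 of week 3 was high for Ltbp2 (19.5, next 18.5), in a group with an SD of 0.512. Knockout Scl-Ab replicate 2 of week 8 was low for Tgfbi (81.98). No cause was tested for any of them.

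Effects differed between groups by a test of the difference itself in 4 cases. The response to Scl-Ab in week 3 was higher in knockout than in wild-type mice for Tgfb2 (0.90), Tgfb3 (0.61) and Ltbp2 (0.71), and the genotype difference of Ltbp2 under vehicle was larger in week 16 than in week 3 (1.53).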

How the results depend on the processing

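Of 24 calls on members, 12 held in each of the 9 alternatives run and 11 of these also without any 1 library of the groups compared: all of them concern Tgfb1, Ltbp2 or Tgfb3. No call changed direction. With carry-over scores the number of members called became 5 in place of 3 for genotype under vehicle in week 16, 2 and 1 in place of 0 for Scl-Ab in knockout of weeks 3 and 16, 0 in place of 3 for the difference of responses in week 3, and 2 in place of 1 for the genotype difference in week 16 against week 3. With clock components the 1 member of genotype under vehicle in week 3 and the 1 of Scl-Ab in wild type of week 3 both became 0. Fitted on week 3 alone the difference of responses had 0, and with median of ratios the genotype difference in week 16 against week 3 had 2. Without the 34 libraries of high tissue scores, an alternative chosen after seeing the data that left 3 to 10 libraries per group, the counts were 0 for genotype under vehicle in week 3, 2 under Scl-Ab in weeks 3 and 8 in place of 4, and 1 for the difference of responses in week 3.

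Leaving out each library gave 1 to 2, 1 to 3 and 2 to 3 members for genotype under vehicle in weeks 3, 8 and 16, and 3 to 5, 4 to 5 and 4 to 5 under Scl-Ab. For Scl-Ab in wild type of week 3 it gave 1 to 3, in knockout of week 3 0 to 5 and of week 16 0 to 1, for the difference of responses in week 3 0 to 6, and for the genotype difference in week 16 against week 3 1 to 2. The other comparisons stayed at 0. The counts of genotype under vehicle moved without wild-type replicate 4 or knockout replicates 2, 5 or 7 in week 3 (2 each) and without wild-type replicates 1, 2 or 3 in week 8 (1 each). For Scl-Ab in wild type of week 3 they moved without vehicle replicate 4 (3) or 6 (2) or Scl-Ab replicate 1 (3), and for Scl-Ab in knockout of week 16 without Scl-Ab replicate 5 (1). Replicate numbers are not stated to pair animals. Of 139 same-numbered pairs 62 had deviations correlated above 0.1, which decides nothing, as other pairs were not counted that way. Over the pairs of groups the mean correlation ran from -0.253 to 0.223 for same-numbered libraries and from -0.026 to 0.039 for others. With the replicate block the count of week 8 under vehicle was 2 in place of 3, as Tgfbr3 was lost (-0.21, adjusted p = 0.073), and no other call on a member was lost.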
